A study of Mus musculus with 25 samples.

Results

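Ezh1, Ezh2, Eed, Suz12, Jarid2, Ring1, Rnf2, Pcgf1, Pcgf6 and Kdm2b encode subunits of the Polycomb repressive complexes, and their RNA was followed from the 2-cell embryo to the blastocyst of the mouse. These 10 genes were taken by gene symbol from the expression tables of 11 embryo libraries, in which each symbol stood at 1 of 24708 gene loci. Polycomb proteins keep genes silent through 2 kinds of complex. Polycomb repressive complex 2 (PRC2) methylates histone H3 at lysine 27 through EZH2 or its paralog EZH1, held in a core with EED and SUZ12. Polycomb repressive complex 1 (PRC1) places ubiquitin on histone H2A through RNF2 or RING1, and a PCGF protein decides which variant forms. In the mouse embryo, H3K27 methylation inherited from the oocyte silences the maternal copy of a small set of imprinted genes, and loss of either complex in mice is known to harm early development.

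The study set embryos made by in vitro fertilisation (IVF) against WT embryos, and tested raised Fzr1, a gene that encodes an activator of the anaphase-promoting complex. All embryos were of the BDF1 strain. The 2-cell embryos, at embryonic day 1.5, were labelled WT, IVF or sIVF, with 2 libraries each. What sIVF stands for is not given in the labels. The blastocysts, at embryonic day 4.0, were labelled Control (2 libraries) or Fzr1-OE (3 libraries); the labels do not give how Fzr1 was raised, in which cells, or how many embryos went into a library. Values are FPKM, fragments scaled to transcript length and to the number of mapped fragments, as deposited.

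The deposited confidence bounds implied 4742698 to 6377606 fragments in a 2-cell library and 9324167 to 10483442 in a blastocyst library. Libraries of the same group correlated at 0.927 to 0.937 (Pearson r of log2 values) in 2-cell embryos and at 0.988 to 0.990 in blastocysts, so 2-cell values carried more spread. Fzr1 itself was 12.7, 15.5 and 17.1 FPKM in the Fzr1-OE libraries, which lay around the Control values of 16.5 and 16.5 FPKM, so the label was not borne out by this RNA, and every direction for Fzr1-OE below rests on the label. The 6 markers of cumulus cells, which surround the oocyte, summed to at most 0.0399 FPKM in any library. Of 6 epiblast markers 5 or 6 were above 1 FPKM in blastocysts, and they summed to 192 to 225 FPKM there, against 5.03 to 18.9 FPKM in 2-cell embryos. Of 6 markers of the 2-cell stage 4 were listed, and they summed to 25.5 to 80.4 FPKM in 2-cell libraries, 0 FPKM in Control and 2.15 to 3.64 FPKM in Fzr1-OE blastocysts. In Fzr1-OE blastocysts all of this was Zfp352, with Zscan4c, Zscan4d and Usp17la at 0.

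The upstream regions of 4 genes are shown as examples of the contrasts of expression described below. Pcgf1, which fell the most between the stages, had no entry among the promoters. Ezh2 and Pcgf6 had their highest levels in the sIVF 2-cell embryos, and Eed and Suz12, partners in the same PRC2 core, stood at opposite levels in the 2 stages. Each sequence is the 250 bases before the start of transcription, written 5′ to 3′ on the gene's strand, from RefSeq on GRCm38.p6, and capitals mark CG dinucleotides, the sites of DNA methylation and of binding by KDM2B.
Ezh2 (chr6:47595031-47595280, minus strand): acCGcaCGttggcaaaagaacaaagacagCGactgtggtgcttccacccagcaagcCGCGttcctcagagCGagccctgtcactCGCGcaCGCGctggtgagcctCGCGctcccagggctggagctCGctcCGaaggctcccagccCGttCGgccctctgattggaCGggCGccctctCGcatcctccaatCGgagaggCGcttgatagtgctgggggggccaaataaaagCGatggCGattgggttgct
Pcgf6 (chr19:47050907-47051156, minus strand): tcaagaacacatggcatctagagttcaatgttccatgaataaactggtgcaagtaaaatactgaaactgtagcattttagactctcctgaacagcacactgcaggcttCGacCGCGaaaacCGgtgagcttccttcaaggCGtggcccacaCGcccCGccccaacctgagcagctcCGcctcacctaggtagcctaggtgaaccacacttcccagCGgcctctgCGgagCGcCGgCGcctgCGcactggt
Eed (chr7:89980977-89981226, minus strand): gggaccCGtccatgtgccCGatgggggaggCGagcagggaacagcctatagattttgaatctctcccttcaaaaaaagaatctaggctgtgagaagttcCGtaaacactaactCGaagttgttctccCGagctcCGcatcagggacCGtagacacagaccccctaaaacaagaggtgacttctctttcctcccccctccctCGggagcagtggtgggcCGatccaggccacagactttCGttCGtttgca
Suz12 (chr11:79992856-79993105, plus strand): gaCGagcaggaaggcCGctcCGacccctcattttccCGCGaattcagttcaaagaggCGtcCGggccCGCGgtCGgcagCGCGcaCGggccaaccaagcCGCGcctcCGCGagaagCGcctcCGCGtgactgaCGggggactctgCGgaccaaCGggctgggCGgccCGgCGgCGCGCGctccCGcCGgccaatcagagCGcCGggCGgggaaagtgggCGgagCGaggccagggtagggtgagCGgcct
The Suz12 region held 37 CG dinucleotides, Ezh2 23, Pcgf6 14 and Eed 12, against a median of 6 over 32851 mouse promoters of the same length. All 4 counts were above that median, and Suz12 was at percentile 97.71 of all promoters by the observed-to-expected ratio of CG, 1.098 against a median of 0.373. Of the 10 genes, 9 had an entry, with 13 promoters in all. None of the 13 held the E-box CACGTG, the motif bound by the MGA and MAX proteins of the PCGF6 complex, or GGCGGGAA, a form of the E2F motif, read on both strands. Only exact matches were sought, so other forms of an E2F site may be present. These motifs occur in 6.02% and 1.86% of all promoters, so their absence from 13 windows is a description only.

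In 2-cell embryos the genes spanned a wide range of levels. Pcgf1 was highest in each of the 3 groups, with a median of 229 FPKM over the 6 libraries, followed by Suz12 in WT and IVF and by Pcgf6 in sIVF. Suz12 had a median of 88.3 FPKM, Pcgf6 52.1, Eed 46.4, Ezh2 43.1 and Rnf2 34.8 FPKM. Kdm2b, Jarid2 and Ezh1 were lower, with medians of 8.31, 5.81 and 3.79 FPKM, and Ring1 was listed at 0 in 3 of 6 libraries. Neighbours in this order were not always apart. In WT the ranges of neighbours overlapped among Rnf2, Pcgf6 and Eed, and again among Jarid2, Kdm2b and Ezh1. In blastocysts the order was different. Eed was highest in both groups, with a median of 122 FPKM over the 5 libraries, followed by Jarid2 (36.8 FPKM) and Ezh2 (35.6 FPKM), and Pcgf1 had a median of 11.1 FPKM. FPKM is scaled for transcript length, which allows only a rough comparison between genes. The effect of cDNA amplification on single transcripts was not tested.

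**Figure D1:**
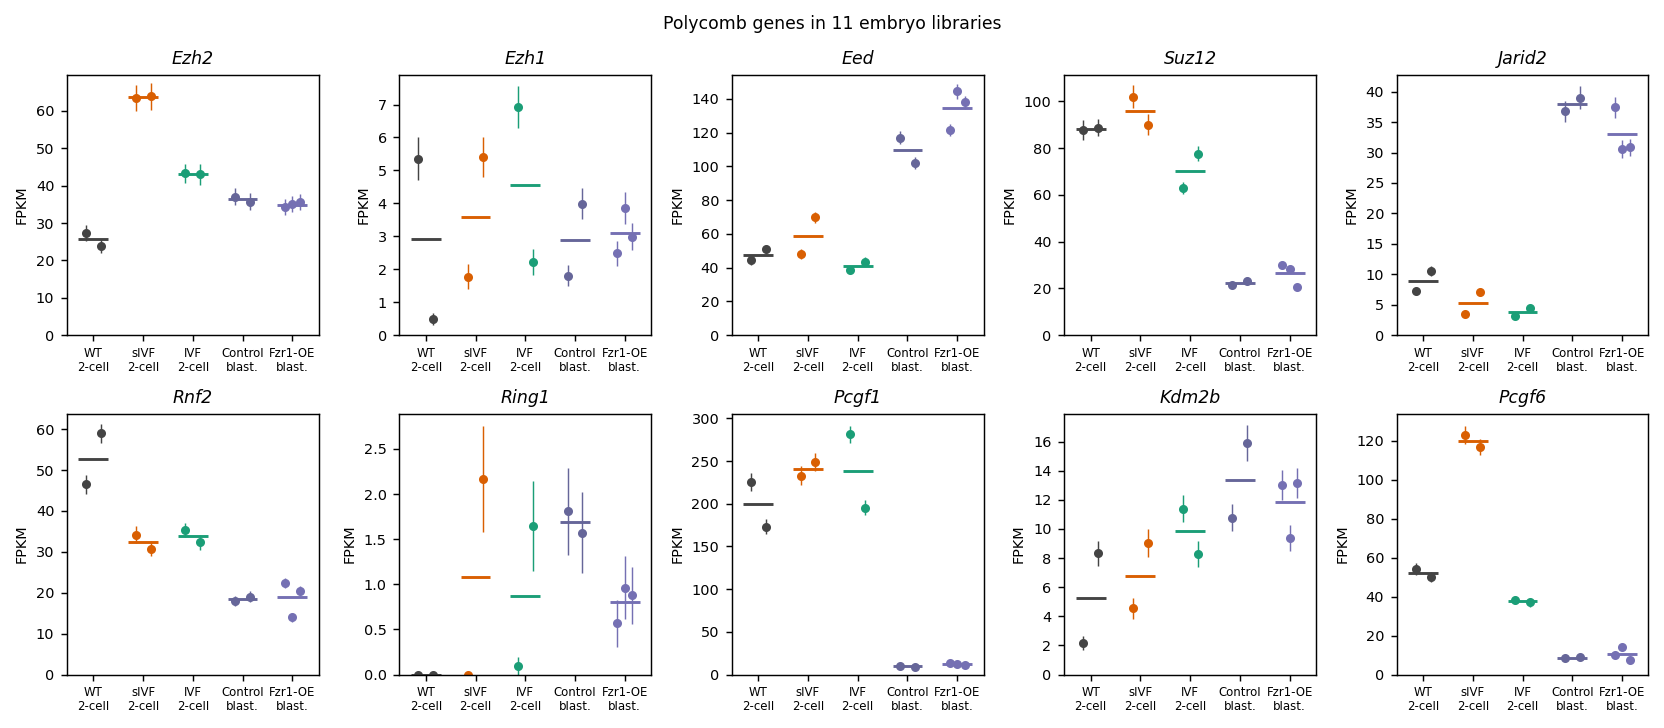
FPKM (linear axis from 0) of each gene in the 11 libraries, grouped as WT, sIVF and IVF 2-cell embryos and Control and Fzr1-OE blastocysts; points are libraries, vertical lines the deposited confidence bounds (counting error) and horizontal bars group means. Ezh2 and Pcgf6 stand highest in sIVF, while Pcgf1 drops from 173 to 281 FPKM in 2-cell embryos to 9.19 to 13.7 FPKM in blastocysts.

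Ezh2, the main H3K27 methyltransferase of proliferating cells, lies on chromosome 6 from 47480273 to 47545029 (mm9). It stood at 27.3 and 23.9 FPKM in WT 2-cell embryos, at 43.3 and 43.0 FPKM in IVF and at 63.5 and 63.9 FPKM in sIVF. The 3 groups did not overlap, and the order was WT, IVF, sIVF. Against WT, the sIVF level was higher by a log2 fold change of 1.28 (standard error, SE, 0.27; 95% interval 0.66 to 1.90) and ranked 15 of 8246 loci by p, with a limma p of 0.0013 before adjustment. It did not pass after adjustment over all loci (limma adjusted p = 0.466). The IVF difference from WT was 0.73 (SE 0.27; 95% interval 0.11 to 1.35; limma adjusted p = 0.338), and that between sIVF and IVF was 0.55 (SE 0.27; limma adjusted p = 0.472). The 3 comparisons share their libraries and are not independent. RNA of oocyte markers was also higher in IVF and sIVF than in WT when summed. The summed level of 6 such genes (Gdf9, Bmp15, Zp2, Zp3, Mos and Oosp1) was 90.4 to 116 FPKM in WT, 133 to 175 FPKM in IVF and 180 to 210 FPKM in sIVF, with Mos at 0 in both sIVF libraries and Mos and Zp2 at 0 in WT replicate 1. Oosp1 carried most of the gap between IVF and sIVF, with means of 55.5 and 106 FPKM. Group means followed the order WT, IVF, sIVF for 3 of the 6 (Oosp1, Zp2 and Zp3), while Gdf9, Bmp15 and Mos were higher in IVF than in sIVF. The part of inherited maternal RNA in the Ezh2 difference was not tested.

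Ezh1, which encodes the weaker methyltransferase found mainly in non-dividing cells, lies on chromosome 11 from 101052429 to 101087777 and varied more within groups than between them. It stood at 5.36 and 0.492 FPKM in WT, 6.92 and 2.22 FPKM in IVF and 1.77 and 5.41 FPKM in sIVF 2-cell embryos. The ranges of the 3 groups overlapped, and the interval of the sIVF difference from WT ran from -1.58 to 2.49 on the log2 scale. In blastocysts Ezh1 stood at 1.81 and 4.00 FPKM in Control and 2.48, 3.86 and 2.99 FPKM in Fzr1-OE. The Ezh2 level was higher than the Ezh1 level in all 11 libraries, by a ratio of 5.10 to 48.7 in 2-cell embryos and 8.95 to 20.5 in blastocysts. That ratio had no order by group, since WT held both the lowest and the highest value.

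Eed, the subunit that reads the methyl mark and activates the enzyme, lies on chromosome 7 from 97103164 to 97129486 (mm9). It stood at 44.6 and 50.8 FPKM in WT, 38.8 and 43.5 FPKM in IVF and 48.2 and 69.8 FPKM in sIVF. WT lay above IVF without overlap and overlapped sIVF. Suz12, the scaffold of the core, lies on chromosome 11 from 79806608 to 79847625 and stood at 87.7 and 88.8 FPKM in WT, 62.8 and 77.7 FPKM in IVF and 102 and 90.0 FPKM in sIVF. Both genes were thus lowest in IVF, with log2 fold changes against WT of -0.21 for Eed (SE 0.29, limma adjusted p = 0.838) and -0.33 for Suz12 (SE 0.23, limma adjusted p = 0.636). Neither passed the test.

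Jarid2, a PRC2 partner that helps to bring the complex to DNA, lies on chromosome 13 from 44826143 to 45017012 and stood at 7.32 and 10.5 FPKM in WT, 3.08 and 4.53 FPKM in IVF and 3.55 and 7.09 FPKM in sIVF. Both WT libraries lay above the 4 others. The log2 fold change was -1.04 for IVF against WT (SE 0.56; 95% interval -2.32 to 0.24; limma adjusted p = 0.506) and -0.69 for sIVF against WT (SE 0.56, limma adjusted p = 0.796). Neither difference passed the test.

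Rnf2, the main ubiquitin ligase of PRC1 in early mouse embryos, lies on chromosome 1 from 153316536 to 153347953 and had a like order. It stood at 46.6 and 59.0 FPKM in WT, 35.4 and 32.3 FPKM in IVF and 34.2 and 30.8 FPKM in sIVF. Both WT libraries again lay above the 4 others. The log2 fold changes against WT were -0.62 in IVF (SE 0.29; 95% interval -1.28 to 0.04; limma adjusted p = 0.434) and -0.67 in sIVF (SE 0.29; 95% interval -1.33 to -0.01; limma adjusted p = 0.691), and neither passed. Ring1, its paralog on chromosome 17 from 34157737 to 34161625, was listed at 0 in both WT libraries and sIVF replicate 1, at 2.17 FPKM in sIVF replicate 2, and at 0.0927 and 1.64 FPKM in IVF. Its mean was under 1 FPKM over the 2-cell libraries, so it was not tested there. The ratio of Rnf2 to Ring1 was 10.01 to 382 in the 8 libraries where Ring1 was above 0. The highest ratio belonged to the IVF library at 0.0927 FPKM, which rested on 3 implied fragments.

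Pcgf1 and Kdm2b belong to the variant complex PRC1.1, in which KDM2B binds unmethylated CG-rich DNA. Pcgf1, on chromosome 6 from 83028384 to 83030849, stood at 226 and 173 FPKM in WT, 281 and 196 FPKM in IVF and 233 and 249 FPKM in sIVF. The sIVF libraries lay above both WT libraries, but by a log2 fold change of 0.28 only (SE 0.23; 95% interval -0.25 to 0.82; limma adjusted p = 0.796). Kdm2b, on chromosome 5 from 123320681 to 123439108, stood at 2.16 and 8.33 FPKM in WT, 11.4 and 8.29 FPKM in IVF and 4.54 and 9.04 FPKM in sIVF, and its ranges overlapped in all 3 groups. The 2 WT libraries of Kdm2b differed more from each other than the group means did, so the interval of the IVF difference from WT was wide, from -0.51 to 2.47 on the log2 scale.

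Pcgf6 defines the variant complex PRC1.6, which silences germline genes in mouse embryonic stem cells, and lies on chromosome 19 from 47108109 to 47125335. It stood at 54.0 and 50.2 FPKM in WT, 38.2 and 37.0 FPKM in IVF and 123 and 117 FPKM in sIVF. The 3 groups did not overlap, and the order was IVF, WT, sIVF. The sIVF level was higher than the IVF level by a log2 fold change of 1.65 (SE 0.24; 95% interval 1.1 to 2.2), which ranked 15 of 8246 loci and just missed the threshold (limma adjusted p = 0.0560). It passed where only loci with a mean of 5 FPKM or more were tested (limma adjusted p = 0.0385). Against WT the sIVF difference was 1.19 (SE 0.24; 95% interval 0.64 to 1.74; rank 11 of 8246; limma adjusted p = 0.466) and the IVF difference was -0.46 (SE 0.24; 95% interval -1.01 to 0.09; limma adjusted p = 0.490). The ratio of Pcgf1 to Pcgf6 followed. It was 4.18 and 3.45 in WT, 7.37 and 5.28 in IVF and 1.89 and 2.13 in sIVF, so that the 3 groups were apart on this scale as well, which does not depend on how a library was scaled. The 4 listed markers of the 2-cell stage summed to 25.5 to 28.3 FPKM in IVF, 30.4 to 61.7 FPKM in WT and 54.1 to 80.4 FPKM in sIVF, with WT and sIVF overlapping. Of the 4, Zfp352 and Zscan4d had means in the order IVF, WT, sIVF, while Zscan4c was highest in WT and Usp17la in IVF. Their part in the Pcgf6 values was not tested.

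**Figure D2:**
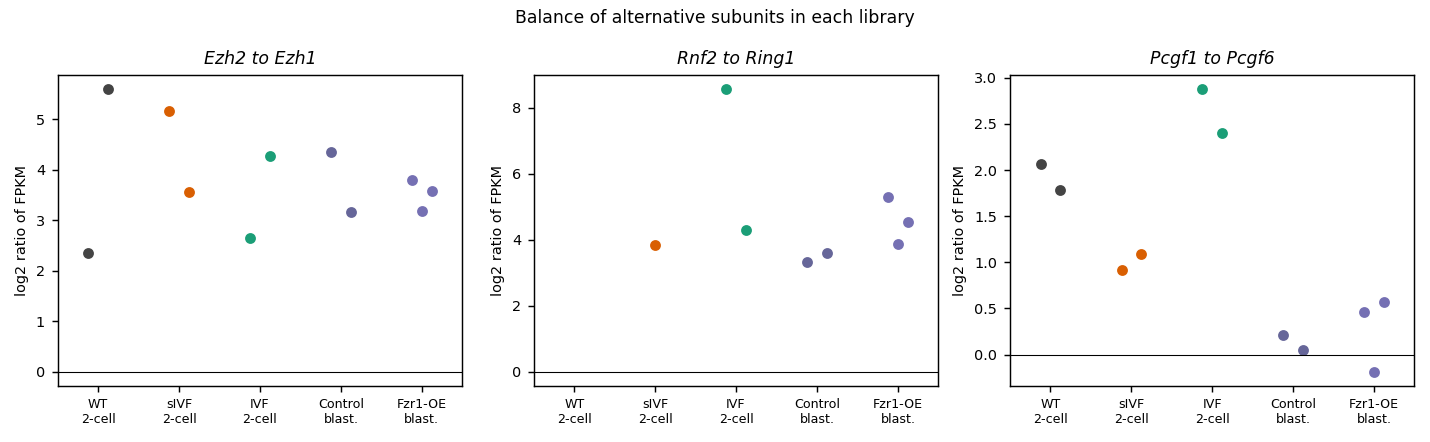
Log2 ratio of FPKM of alternative subunits in each library for Ezh2 to Ezh1, Rnf2 to Ring1 and Pcgf1 to Pcgf6, by group; points are libraries, and libraries with Ring1 listed at 0 have no point. The Pcgf1 to Pcgf6 ratio separates the 3 groups of 2-cell embryos and lies between 0.881 and 1.48 (linear) in blastocysts.

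Over the 3 comparisons in 2-cell embryos, 0 of the 9 genes tested passed a limma adjusted p under 0.05. Few loci passed at all: 0.0121% of 8246 for IVF against WT, and 0% when sIVF was set against WT or against IVF. Before adjustment, p was under 0.05 for 1 gene of 9 in IVF against WT (Ezh2; 12.4% of all loci), 3 in sIVF against WT (Ezh2, Pcgf6 and Rnf2; 7.09% of all loci) and 1 in sIVF against IVF (Pcgf6; 11.8% of all loci). Groups did not overlap for 1 gene higher and 5 lower in IVF than in WT, where 22.8% and 19.3% of all loci did so. They did not overlap for 4 genes higher and 2 lower in sIVF than in WT (20.6% and 15.3% of all loci), and for 4 higher and 0 lower in sIVF than in IVF (21.7% and 21.0% of all loci). The median log2 fold change of the 9 genes was -0.21, 0.28 and 0.35 in these comparisons, beside 0.09, 0.06 and -0.02 over all loci. With 2 libraries a group, a difference that misses the threshold is not shown to be absent.

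Other Polycomb genes and their targets were read from 5 lists. They covered accessory and regulatory genes of PRC2, not all of them subunits (9 genes), canonical PRC1 (12) and variant PRC1 (16). Enzymes and partners that remove the marks (13) and genes imprinted through H3K27 methylation (7 symbols) made up the rest. Of those 7 symbols Phf17 and Jade1 name 1 gene, and Phf17 was not found. In each 2-cell comparison 0 of the 39 listed genes tested passed. Before adjustment, limma p was under 0.05 for 3 of the 39 in IVF against WT (12.4% of all loci), 3 in sIVF against WT (7.09%) and 8 in sIVF against IVF (11.8%). E2f6, a DNA-binding partner of PCGF6 in PRC1.6, had the smallest p of the variant list in both sIVF comparisons. It was listed at 0.250 and 0.153 FPKM in WT, 0 in both IVF libraries, and 4.87 and 4.31 FPKM in sIVF, where it stood highest. E2f6 was thus under 1 FPKM in every WT and IVF library. It met the filter only through sIVF, so a fall in sIVF could not have been found. Its log2 fold change in sIVF was 2.22 against WT (SE 0.71, limma adjusted p = 0.548) and 2.48 against IVF (SE 0.71, limma adjusted p = 0.239). Mga, Max and L3mbtl2, also of PRC1.6, did not stand highest in sIVF. Their log2 fold changes in sIVF were -0.19, -0.53 and -0.55 against WT, and 0.69, -0.51 and -0.16 against IVF. The median of the 16 genes of the variant list was -0.13 and 0.002. Kdm6a, an X-linked H3K27 demethylase gene, led the erasers in both IVF comparisons. It stood at 14.5 and 20.6 FPKM in WT, 4.18 and 7.31 FPKM in IVF and 17.7 and 19.1 FPKM in sIVF. Both IVF values were below the 4 others, with a log2 fold change against WT of -1.48 (SE 0.44, limma adjusted p = 0.230). Bmi1, which encodes 1 of the 2 PCGF proteins of canonical PRC1, was likewise lowest in IVF, at 60.6 and 67.2 FPKM against 94.5 and 118 FPKM in WT (log2 fold change -0.72, SE 0.23, limma adjusted p = 0.277). Skp1a, a partner of KDM2B in PRC1.1, had the smallest p of the variant list for IVF against WT (log2 fold change -0.90, SE 0.18, limma adjusted p = 0.121). AU022751 and Mtf2 led the PRC2 list, with AU022751 at 2.46 in sIVF against WT (SE 0.92, limma adjusted p = 0.615) and Mtf2 at 0.81 in sIVF against IVF (SE 0.28, limma adjusted p = 0.301). AU022751 was also first for IVF against WT, at 1.97 (SE 0.92, limma adjusted p = 0.438), with 1 WT library at 0 FPKM. For sIVF against WT the smallest limma adjusted p was 0.847 for Scml2 of canonical PRC1 and 0.791 for Asxl1 of the erasers. For the imprinted list it was 0.754 in IVF and 0.790 in sIVF against WT, both for Gab1, and 0.695 in sIVF against IVF, for Jade1.

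In blastocysts the libraries labelled Fzr1-OE and Control differed little in these genes. Of the 10 genes 0 passed, while 4.21% of 9439 loci did, and 1 of the 10 had a limma p under 0.05 before adjustment, beside 19.7% of all loci. Eed had the smallest p. It stood at 122, 144 and 138 FPKM in Fzr1-OE, and Control at 117 and 102 FPKM, so that the groups did not overlap. Its log2 fold change was 0.30 (SE 0.10; 95% interval 0.07 to 0.52; limma adjusted p = 0.146). Suz12 stood at 30.1, 28.3 and 20.8 FPKM in Fzr1-OE against 21.5 and 23.2 FPKM, and Jarid2 at 37.4, 30.6 and 30.8 FPKM against 36.8 and 39.0 FPKM. Their groups overlapped. Ezh2 stood at 34.2, 35.0 and 35.6 FPKM against 37.1 and 35.7 FPKM in Control, and the interval of that difference was narrow, from -0.30 to 0.18 on the log2 scale.

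Among the PRC1 genes, Ring1 was above 0 in all 5 blastocyst libraries. At 0.569, 0.964 and 0.876 FPKM, the Fzr1-OE libraries lay below both Control libraries at 1.81 and 1.57 FPKM (log2 fold change -0.58; SE 0.27; 95% interval -1.19 to 0.02; limma adjusted p = 0.271), on 18.9 to 56.1 implied fragments a library. Ring1 was under 1 FPKM in every Fzr1-OE library and met the filter only through Control, which favoured a lower value in Fzr1-OE. Rnf2 stood at 22.4, 14.0 and 20.4 FPKM in Fzr1-OE against 18.1 and 19.1 FPKM in Control, with overlap. Pcgf1 stood at 13.7, 12.6 and 11.1 FPKM, above both Control libraries at 9.81 and 9.19 FPKM (log2 fold change 0.36, SE 0.17, limma adjusted p = 0.276). The groups overlapped for Kdm2b, at 13.0, 9.38 and 13.1 FPKM against 10.8 and 15.9 FPKM, and for Pcgf6, at 9.93, 14.4 and 7.47 FPKM against 8.45 and 8.88 FPKM. In all, groups did not overlap for 2 genes higher (Eed and Pcgf1) and 2 lower (Ezh2 and Ring1, the latter with the limit given above) in Fzr1-OE, beside 19% and 18.4% of all loci. Of 41 listed Polycomb genes tested, 1 rose and 0 fell, beside 2.29% and 1.92% of all loci. Rbbp7, a histone-binding subunit of PRC2 that also serves other chromatin complexes, stood at 402, 405 and 404 FPKM in Fzr1-OE against 345 and 303 FPKM in Control (log2 fold change 0.32, SE 0.07, limma adjusted p = 0.0383). That call ended in 7 of 13 alternatives, which were no filter, no intensity trend, the replicate block and leaving out any 1 of Fzr1-OE replicates 1, 2 and 3 or Control replicate 2, with values between 0.23 and 0.41 over all 13. In the other lists the smallest adjusted p fell to Xist (0.91, SE 0.23, limma adjusted p = 0.0622), Cbx8 (-1.07, SE 0.28, limma adjusted p = 0.0700), Kdm6b (-0.86, SE 0.29, limma adjusted p = 0.140) and E2f6 (0.64, SE 0.30, limma adjusted p = 0.269). The 6 trophectoderm markers summed to 3528 to 3596 FPKM in Fzr1-OE and 5577 to 5614 FPKM in Control. The keratin genes Krt8 and Krt18 made up most of that sum. Gata3 and Eomes were lower in Fzr1-OE as well, but Cdx2 (8.36 against 7.99 FPKM, means) and Tfap2c (22.9 against 18.9 FPKM) were not. The 6 primitive endoderm markers summed to 33 to 36.8 FPKM in Fzr1-OE and 24.0 to 27 FPKM in Control, led by Gata6 (24.0 against 14.3 FPKM, means), and of the other 5 Col4a1, Pdgfra and Sox7 had lower means in Fzr1-OE. In bulk embryos fewer cells of a type and less RNA per cell cannot be told apart, and the part of these marker differences in the values above was not tested.

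**Figure D3:**
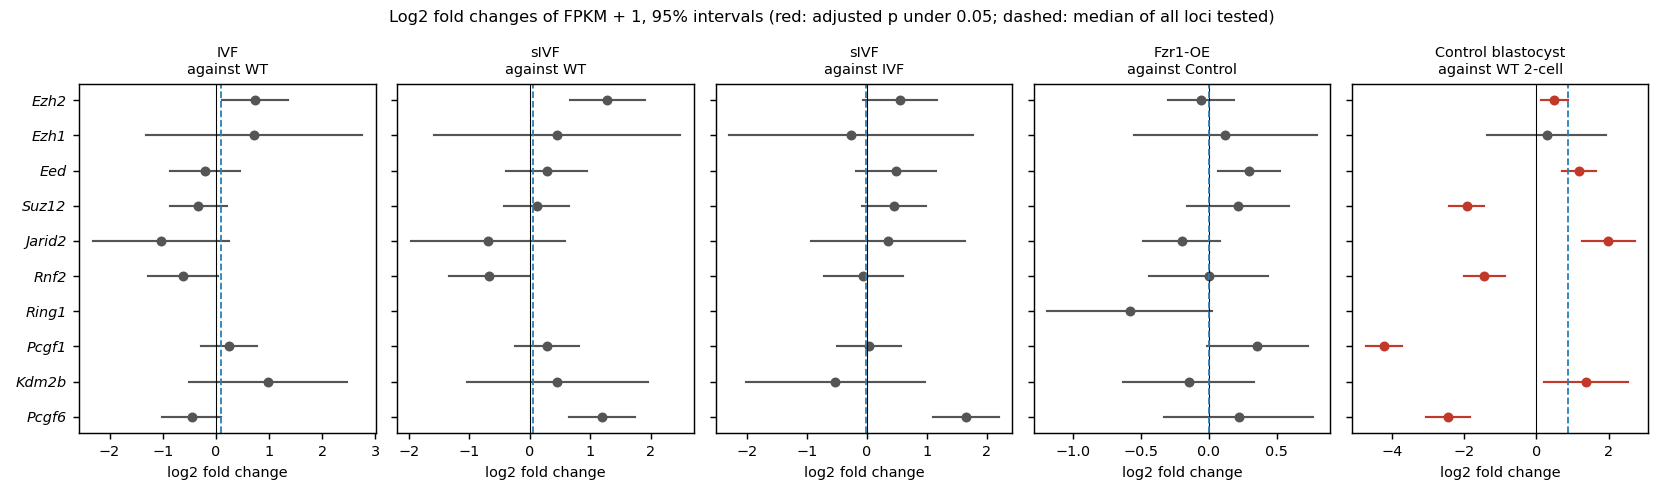
Log2 fold change of FPKM + 1 (x axis) of each gene in the 5 comparisons, with 95% intervals from limma; red marks an adjusted p under 0.05, and the dashed line is the median of all loci tested. No gene passes in the 4 comparisons within a stage, and 8 of 9 pass between stages, where the median of all loci is 0.88.

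Between the stages the Polycomb genes parted. Control blastocysts were set against WT 2-cell embryos in a fit of all 11 libraries. Of 9 genes tested, 4 were higher and 4 lower in blastocysts, while 65.4% of 9762 loci passed, 45.8% higher and 19.6% lower. Among the loci tested FPKM tended to be higher in blastocysts, with a median log2 fold change of 0.88. More loci were above 0 in Control blastocysts (13658 and 13736) than in WT 2-cell embryos (10559 and 10085). The upper quartile of loci above 0 was 16.8 and 16.5 FPKM against 14.6 and 14.8 FPKM. The median locus is thus a reference and not a scaling factor, and the change of each of the 9 genes is also given relative to it. Stage and experiment cannot be told apart here.

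Pcgf1 fell the most of the 9. From 226 and 173 FPKM in WT 2-cell embryos it fell to 9.81 and 9.19 FPKM in Control blastocysts, with a log2 fold change of -4.24 and an SE of 0.22 (limma adjusted p = 8.74e-07), or -5.13 relative to the median locus. Pcgf6 fell from 54.0 and 50.2 FPKM to 8.45 and 8.88 FPKM (log2 fold change -2.46, SE 0.27, limma adjusted p = 5.96e-05; -3.34 relative to the median). As the PRC1.1 subunit fell further than the PRC1.6 subunit, the ratio of Pcgf1 to Pcgf6 in blastocysts was 0.881 to 1.48, under every 2-cell library. Rnf2 fell from 46.6 and 59.0 FPKM to 18.1 and 19.1 FPKM (log2 fold change -1.45, SE 0.25, limma adjusted p = 9.37e-04; -2.33 relative to the median). Suz12 fell from 87.7 and 88.8 FPKM to 21.5 and 23.2 FPKM (log2 fold change -1.93, SE 0.22, limma adjusted p = 6.61e-05; -2.82 relative to the median). These 4 genes fell with every one of the 20 other settings and left-out libraries tried.

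Jarid2 rose from 7.32 and 10.5 FPKM to 36.8 and 39.0 FPKM, with a log2 fold change of 1.99 and an SE of 0.33 (limma adjusted p = 6.61e-04), or 1.11 relative to the median, and it too passed in all 20. Eed rose from 44.6 and 50.8 FPKM to 117 and 102 FPKM (log2 fold change 1.18, SE 0.21, limma adjusted p = 9.22e-04). Relative to the median locus that was 0.30, and with quantile normalization, which gives each library the same distribution of values, Eed no longer passed (0.32, limma adjusted p = 0.229). Eed and Suz12, which sit in 1 core complex, so moved apart on this scale. The Ezh2 rise, from 27.3 and 23.9 FPKM to 37.1 and 35.7 FPKM (log2 fold change 0.49, SE 0.16, limma adjusted p = 0.0252), was smaller than the median locus by 0.39 and turned to -0.39 with quantile normalization (limma adjusted p = 0.0772). It ended without WT replicate 2 (0.40, limma adjusted p = 0.0878), Control replicate 1 (0.47, 0.0915) or Control replicate 2 (0.52, 0.0694). Of the 20 alternatives, 13 kept the Ezh2 call. The blastocyst levels of Ezh2 also lay inside the range of the 2-cell libraries, under both sIVF and both IVF libraries. Kdm2b rose from 2.16 and 8.33 FPKM to 10.8 and 15.9 FPKM (log2 fold change 1.38, SE 0.51, limma adjusted p = 0.0402; 0.49 relative to the median). Only 8 of the 20 alternatives kept the Kdm2b call. That call rested on the low WT library, since without WT replicate 1 the change was 0.60 (limma adjusted p = 0.266) and without WT replicate 2 it was 2.16. It ended as well without either Control library or any 1 of the 3 Fzr1-OE libraries, which lend only their spread, with limma adjusted p of 0.0566 to 0.191. Ezh1 did not pass (0.28, SE 0.73, limma adjusted p = 0.751; -0.60 relative to the median), and quantile normalization turned it to -0.85.

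Set against all 6 2-cell libraries, all 5 blastocyst libraries were higher for 2 of the 9 genes (Eed and Jarid2; 43% of all loci) and lower for 4 (Suz12, Rnf2, Pcgf1 and Pcgf6; 17.1% of all loci). Suz12 ranged from 62.8 to 102 FPKM in 2-cell embryos and from 20.8 to 30.1 FPKM in blastocysts. For Jarid2 the ranges were 3.08 to 10.5 FPKM and 30.6 to 39.0 FPKM. RNA of the 6 oocyte markers was 90.4 to 210 FPKM in 2-cell libraries and 0.301 to 2.52 FPKM in blastocysts, and that of the 6 trophectoderm markers 10.1 to 22.0 and 3528 to 5614 FPKM. The part of maternal RNA and of the new cell types in the stage changes was not tested.

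**Figure D4:**
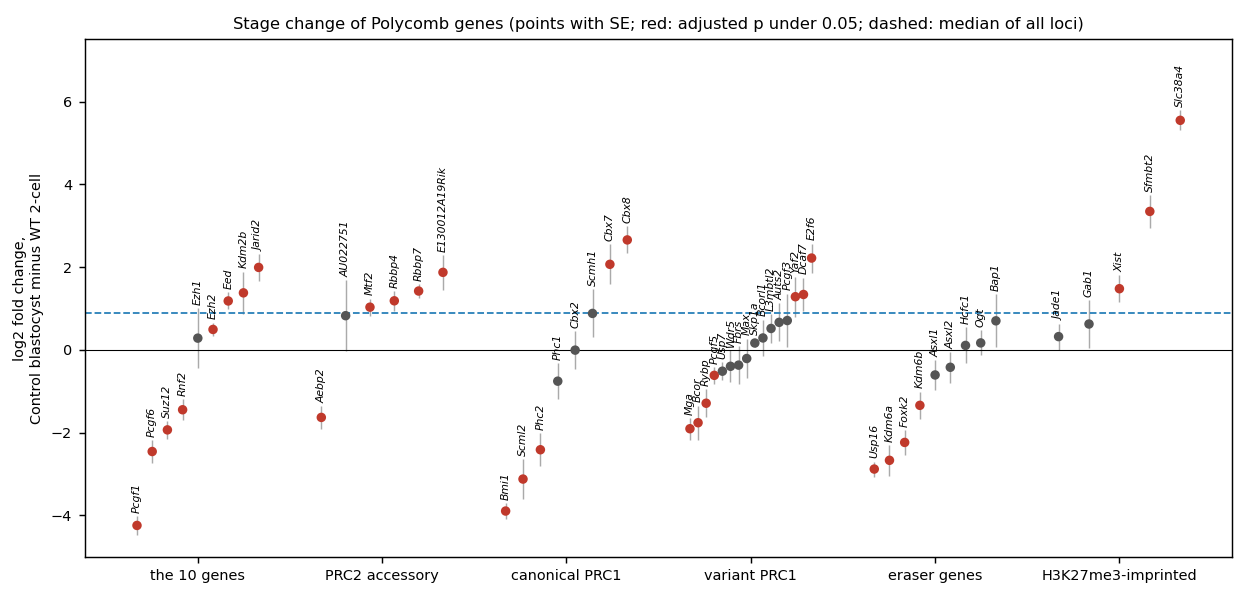
Log2 fold change of FPKM + 1 between Control blastocysts and WT 2-cell embryos for the tested genes of the 10 and of the 5 further Polycomb lists; points are genes with their SE, red marks a limma adjusted p under 0.05, and the dashed line is the median of all loci (0.88). Bmi1, Usp16 and Pcgf1 are among the lowest and Slc38a4 is the highest, at 5.55.

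The other Polycomb genes split between the stages in the same comparison, with 12 of 44 tested higher and 12 lower, beside 45.8% and 19.6% of all loci, and a median of 0.17 beside 0.88 over all loci. The counts of the single lists, all of 16 genes or fewer, are to be read against the same shares. A gene under 1 FPKM in every library of a stage met the filter only through the other stage, which fixed its direction. Among the genes named below this held for E130012A19Rik, Slc38a4, Sfmbt2 and Xist (low in 2-cell embryos) and for Scml2 and Foxk2 (low in blastocysts). Cbx8 averaged under 1 FPKM over the 2-cell libraries, at 0 in both WT libraries, and Bcor averaged under 1 FPKM over the blastocyst libraries. Each of these 2 met the filter only through the other stage, which favoured its direction. Of the PRC2 list 4 of 6 rose and 1 fell. The histone-binding genes Rbbp7 (1.42, SE 0.16, limma adjusted p = 6.66e-05) and Rbbp4 (1.18, SE 0.24, limma adjusted p = 0.00203), and Mtf2 (1.03, SE 0.20, limma adjusted p = 0.00198), which brings PRC2 to CG-rich DNA, rose along with E130012A19Rik. Aebp2, a cofactor of another form of PRC2, fell (-1.63, SE 0.27, limma adjusted p = 6.59e-04). Quantile normalization left Rbbp7 as the 1 gene higher and Aebp2 as the 1 lower. Of canonical PRC1, 2 of 8 rose and 3 fell. The chromodomain genes Cbx8 (2.66, SE 0.33, limma adjusted p = 1.17e-04) and Cbx7 (2.07, SE 0.48, limma adjusted p = 0.00458) were higher in blastocysts. Bmi1 dropped from 94.5 and 118 FPKM to 6.26 and 6.07 FPKM (log2 fold change -3.90, SE 0.19, limma adjusted p = 6.54e-07), and Scml2 (-3.12) and Phc2 (-2.41) were lower too.

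Variant PRC1 gave 3 rises and 4 falls among 16 genes, or 1 and 8 with quantile normalization. E2f6, at 0.250 and 0.153 FPKM in WT 2-cell embryos, stood at 7.17 and 2.82 FPKM in Control blastocysts (log2 fold change 2.22, SE 0.35, limma adjusted p = 5.24e-04). Mga, which encodes the scaffold of PRC1.6, fell (-1.91, SE 0.26, limma adjusted p = 2.27e-04), as did Bcor of PRC1.1 (-1.76, SE 0.41) and the RNF2-binding Rybp (-1.29, SE 0.33). Dcaf7 (1.34, SE 0.41) and Yaf2 (1.28, SE 0.49) rose but lost the call in 5 and 12 of 20 other settings. They did so without WT replicate 2 or either Control library, and Yaf2 also without sIVF replicate 2 or any Fzr1-OE library. Of the erasers 0 of 9 rose and 4 fell. These were Usp16, a histone H2A deubiquitinase gene, from 179 and 131 FPKM to 20.8 and 19.1 FPKM (log2 fold change -2.88, SE 0.18, limma adjusted p = 2.42e-06), the demethylase genes Kdm6a (-2.67, SE 0.37) and Kdm6b (-1.34, SE 0.33) and the transcription factor gene Foxk2 (-2.24, SE 0.30). The Kdm6b call ended without Control replicate 1, at -0.89. Of the imprinted genes 3 of 5 rose and 0 fell. The 3 stood under 1 FPKM in every 2-cell library and met the filter only through blastocysts, so a fall could not have been found for them. Gab1 (0.62) and Jade1 (0.32), which were above 1 FPKM in both WT libraries, did not pass. Slc38a4, an amino acid transporter gene, went from 0 and 0.0364 FPKM to 42.5 and 51.0 FPKM (log2 fold change 5.55, SE 0.24, limma adjusted p = 3.70e-07), Sfmbt2, a Polycomb-related gene, rose by 3.34 (SE 0.39, limma adjusted p = 9.30e-05), and Xist, the RNA of X inactivation, by 1.48 (SE 0.32, limma adjusted p = 0.00330), which did not hold with quantile normalization (0.13).

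The loci whose profile over the 11 libraries lay nearest to each gene were found by the root mean square difference of centred log2 values among 5814 loci. Suz12 was nearest to Sbno1 (0.115) and Oser1 (0.148), and Eed to Smc5 (0.139) and Cct8 (0.155). Ezh2 was nearest to Srsf11 (0.199) and Pdcd2, Rnf2 to Prps1l3 (0.180) and Ocm, Kdm2b to Gm5801 (0.191) and Becn1, and Jarid2 to Ywhah (0.216) and Tmem38b. Pcgf1 was nearest to Cecr2 (0.236) and Csrnp2, and Pcgf6 to Rrn3 (0.253) and Zfp820. All loci compared averaged 5 FPKM or more. The low genes had no near match among them, with 0.357 for Ezh1 and Mastl (Zfp932 next) and 0.384 for Ring1 and Cnot4 (Ccnt1 next). None of the nearest loci was another of the 10 genes. Ezh1 and Ring1, averaging 3.39 and 0.881 FPKM, could not be returned as neighbours.

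For subcutaneous fat of Fzr1-OE and Control mice aged 4 months, gene ontology terms were read from the authors' deposited tables. Of the 10 genes, 0 were named among the 449 symbols of the authors' deposited table for RNA (1605 terms) or the 119 symbols of the authors' deposited table for DNA methylation (632 terms). Of 57 other listed Polycomb genes, Auts2 was named in the authors' deposited table for RNA, and Pcgf5 and Smoc1 in the authors' deposited table for methylation. The tables give no direction.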

How the data were processed

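Polyadenylated RNA was measured. Per the labels' protocols, cDNA from lysates was amplified over 18 to 20 cycles before paired-end sequencing. Per the file headers, each locus has an FPKM value with confidence bounds, as the authors deposited it. The submitters' processing notes name HISAT2 2.1.0 and Cufflinks 2.2.1, without roles, and the build mm9. The use of strand is not given in the sources used here, and no other listed locus overlapped the 10. The fat files turned out to be gene ontology tables, in which the authors deposited a p-value per term. Groups came from titles and genotype labels. Replicates are not called separate cultures or animals there, so p-values may measure technical spread only. Fragment numbers come from the bounds, read as 2 standard deviations either side (counting error only).

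Loci averaging 1 FPKM or more were tested on log2(FPKM + 1) in limma 3.58.1 under R 4.3.3, with lmFit and a trended eBayes. The 6 2-cell libraries shared a fit, the 5 blastocyst libraries had another, and the stage comparison used all 11. Tests were two-sided, adjusted by Benjamini-Hochberg over all loci, with a threshold of 0.05. Changes of low genes are understated on this scale. The 10 genes and the lists were chosen with earlier results of these data known. Named were all 10, up to 3 passing genes per list and direction by smallest p (otherwise the 1 of smallest p), and 2 nearest profiles (averaging 5 FPKM or more). The groups shared replicate numbers, but same-numbered deviations correlated at -0.04 to 0.07 over 8 pairs, so the numbers were not taken as pairs. These pairs are not independent, since the deviations in a group of 2 mirror each other and the 2-cell values repeat. Alternatives changed the pseudocount (0.1), the filter (none, or 5 FPKM), the scaling (quantile or upper-quartile), the trend, robust estimation, the libraries in the fit (each left out in turn, or only those compared) or added a replicate block. The steps were tested on simulated data. Promoters (RefSeq, GRCm38.p6) were matched by symbol, and Python 3.11.15, pandas 2.3.3, numpy 2.4.6 and matplotlib 3.10.9 were used. H3K9me3 and input libraries were not used here.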

Additional observations from a re-analysis of the deposited data

How the results depend on the processing

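Of 708 log2 fold changes recomputed for the 10 genes, 661 kept their direction and side of the threshold, 27 reversed, 19 lost and 1 gained the call. The number passing stayed at 0 within each stage, apart from Pcgf6 for sIVF against IVF with a filter of 5 FPKM (1 gene), and between stages it was 5 with quantile normalization and 6 to 8 otherwise. Loci called within blastocysts numbered 397, 0 with no filter and 47 with the replicate block. For IVF against WT they numbered 1, or 21 with a filter of 5 FPKM, which gave 32 for sIVF against IVF. With the replicate block 0 genes passed within a stage and 6 between stages, where Ezh2 (limma adjusted p = 0.0574) and Kdm2b (0.0607) were lost. The share of higher loci among those called between stages was 70.1%, and 48.3% with quantile normalization.

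Quantile normalization reversed Suz12 for sIVF against WT (-0.0072), Pcgf1 for sIVF against IVF (-0.061), Rnf2 for Fzr1-OE against Control (0.0099) and, between stages, Ezh2 (-0.39) and Ezh1 (-0.85). Upper-quartile scaling reversed Pcgf1 for sIVF against IVF (-0.18) and Rnf2 for Fzr1-OE (0.046). The cause was not tested. Leaving out single libraries moved Ezh1 from -0.33 to 1.76 for IVF against WT, from -0.59 to 1.50 for sIVF against WT, from -0.91 to 0.39 for sIVF against IVF, from -0.29 to 0.54 for Fzr1-OE and from -0.76 to 1.33 between stages. Pcgf1 ran from -0.016 to 0.51 for IVF against WT and from -0.22 to 0.30 for sIVF against IVF, where Jarid2 ran from -0.061 to 0.77 and Rnf2 from -0.13 to 0.018. Kdm2b ran from -0.32 to 1.24 for sIVF against WT. For Fzr1-OE, Kdm2b ran from -0.41 to 0.11, Rnf2 from -0.13 to 0.19 and Pcgf6 from -0.0058 to 0.42. The calls that ended were all of Ezh2, Eed and Kdm2b between stages. Without a library the lone sample of a group of 2 is assumed to vary like the other groups. Depth limits Ring1 most, at up to 56.1 fragments a library.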
